A study of Mus musculus with 10 samples.

Results

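Thrsp, the thyroid hormone responsive protein also called Spot14, was described together with 9 genes of thyroid hormone action and fatty acid synthesis in the cerebral cortex of 10 mice. The 9 were the thyroid hormone receptors Thra and Thrb, the thyroid-responsive genes Klf9 and Hr, the synthesis enzymes Fasn, Scd1, Scd2 and Me1, and their regulator Srebf1. Every probe set annotated to one of these 10 genes was taken, which gave 23 of 22626 probe sets, 2 of them for Thrsp and 21 for the other 9 genes. Thrsp was chosen by its difference between the labelled groups in these same data, so that difference is given below as a description with no test. The other genes were chosen by their known relation to Thrsp, but with earlier results of these data known. The question put to the data was whether Thrsp varied between mice together with them.

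The arrays were Affymetrix MOE430A 2.0 chips, each with the cortex RNA of 1 mouse, 5 labelled *p97FE65* null and 5 labelled *p97FE65* wild type. FE65, gene symbol Apbb1, is an adaptor protein that binds the tail of the amyloid precursor protein, and the null allele removes its long isoform, p97FE65. The targeted clones were made in R1 embryonic stem cells, which come from a different mouse strain, and the line was backcrossed to C57Bl/6J for 10 generations. Both groups were males of 6 months, described as littermate pairs, with no treatment given in the labels. Chromosomal sequence of the stem cell strain around Apbb1 can persist through such backcrossing. The study reported such sequence in the null mice within Homer2 and Gprc5b, genes on either side of Apbb1. It did not map the whole retained region.

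The targeted gene was read by 2 probe sets. Apbb1 1423892_at had log2 values of 10.80 to 11.37 in labelled null mice and 10.85 to 11.13 in labelled wild type mice, and 1423893_x_at had 11.30 to 11.51 in labelled null mice and 10.98 to 11.23 in labelled wild type mice. Both lie outside the exon that the null transcript lacks, so they do not check the labels. Under the GEO labels, differences run in the opposite direction to the study's tables, and which genotype each label stands for remained unsettled, so every sign below refers to the labels alone. The arrays resembled each other closely, with correlations of 0.994 to 0.999 over all probe sets and medians of 3.01 to 3.14. Of the neuronal markers, 9 were measured and 7 of these had a mean of at least 5, as did 8 of 10 astrocyte and 7 of 7 oligodendrocyte markers, while all 6 adipose and all 3 blood markers were below 5. No detection calls were used here, and a mean under 5 on the log2 scale was taken as dim, and 7827 probe sets were at or above it.

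Thyroid hormone enters brain cells through membrane transporters, is converted to its active form by a deiodinase, and acts through nuclear receptors that bind DNA, usually with a retinoid X receptor partner. In liver and fat, the hormone and dietary carbohydrate together raise Thrsp, a small acidic protein with no known enzymatic activity, along with malic enzyme and fatty acid synthase. In adult neural stem cells of the mouse, Thrsp has been described as a brake on fatty acid synthesis, and in the cortex newly made fatty acids supply membranes and myelin.

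Thrsp lies on chromosome 7 (chr7:97412933-97417550, GRCm38.p6, minus strand), the chromosome that also carries Apbb1. Its start site region is shown because Thrsp is the gene the description turns on, that of Fasn because it is the main synthetic enzyme and its promoter shares the kind of match found in Thrsp, and that of Thrb because it is a receptor gene and its window holds the letters of a thyroid response half-site. Each runs from 250 bases before to 50 bases after the RefSeq start (GRCm38.p6), 5′ to 3′ on the gene's strand, with matches in capitals.
Thrsp promoter, chr7:97417501-97417800, minus strand: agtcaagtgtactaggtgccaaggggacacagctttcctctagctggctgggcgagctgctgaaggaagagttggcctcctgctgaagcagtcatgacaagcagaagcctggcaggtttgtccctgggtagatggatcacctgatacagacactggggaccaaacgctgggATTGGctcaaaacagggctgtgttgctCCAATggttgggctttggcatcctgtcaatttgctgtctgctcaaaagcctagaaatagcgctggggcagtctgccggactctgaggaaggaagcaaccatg
Fasn promoter, chr11:120824498-120824797, minus strand: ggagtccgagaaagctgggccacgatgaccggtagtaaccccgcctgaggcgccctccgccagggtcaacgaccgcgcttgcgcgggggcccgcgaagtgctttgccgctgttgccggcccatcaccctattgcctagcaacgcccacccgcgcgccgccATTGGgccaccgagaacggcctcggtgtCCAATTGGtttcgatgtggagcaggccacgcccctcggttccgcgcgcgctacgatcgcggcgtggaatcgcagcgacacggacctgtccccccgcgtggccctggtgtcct
Thrb promoter, chr14:17660710-17661009, plus strand: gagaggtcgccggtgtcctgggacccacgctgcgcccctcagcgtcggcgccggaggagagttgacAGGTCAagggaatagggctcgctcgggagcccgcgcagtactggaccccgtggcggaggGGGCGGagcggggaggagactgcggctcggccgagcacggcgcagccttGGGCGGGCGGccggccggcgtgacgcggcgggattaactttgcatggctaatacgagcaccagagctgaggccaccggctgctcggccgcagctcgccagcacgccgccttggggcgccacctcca
The motifs searched on both strands were the half-site AGGTCA, the E-box CACGTG, the CCAAT box CCAAT, the GC box GGGCGG and the TATA box TATAAA. Thrsp had 2 CCAAT matches, on the reverse strand at -79 and on the forward strand at -52 from the start, and no match to the other motifs. Fasn had 3 CCAAT matches, of which a pair on opposite strands overlap. CCAAT matches were also found in the Klf9 window, in a window of Me1 and in windows of Srebf1, none of them shown. Thrb had 1 half-site match at -184 and 3 GC box matches in the window shown. A second Thrb start window in the table, not shown, had an E-box match at -193 and a TATA box match at -167 and no half-site or GC box match. Among 32851 mouse promoter windows of the same length, AGGTCA was found in 16.3%, CCAAT in 37.4%, GGGCGG in 35.7%, TATAAA in 13.6% and CACGTG in 7.15%. Of the 10 genes, 6 had such a window in the table used. These matches describe letters in 1 short window and are not evidence of binding.

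The brighter Thrsp probe set, 1424737_at, had log2 expression values of 7.17, 7.28, 7.53, 7.10 and 8.41 in labelled null mice (replicates 1 to 5). It had 8.22, 7.70, 8.89, 8.16 and 8.59 in labelled wild type mice. Of the labelled null mice, 4 lay below every labelled wild type mouse, and null replicate 5 lay within the wild type range, so the groups overlapped. Thrsp averaged 7.50 ± 0.53 in labelled null and 8.31 ± 0.45 in labelled wild type (SD, n = 5 each), a log2 difference of -0.81, or 1.76-fold lower in the labelled null group. At least as large a difference, in either direction, was found for 5 probe sets of 22626 (0.0221%), with 1424737_at itself counted among them. Nothing is read from this background because Thrsp was selected on this contrast. In bulk tissue, fewer cells that express a gene and less RNA per cell cannot be told apart.

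Thrsp was among the more variable genes of this cortex also inside the groups. Its within-group SD of 0.49 was above that of 97.6% of the 7827 probe sets with a mean of at least 5. The corresponding percentages were 2.17% for Thra 1454675_at, 14.6% for Fasn 1423828_at and 0.268% for Me1 1430307_a_at. The bright probe sets of the other genes thus ranged from among the steadiest to, for Scd2 1415824_at, 95.8%.

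**Figure D1:**
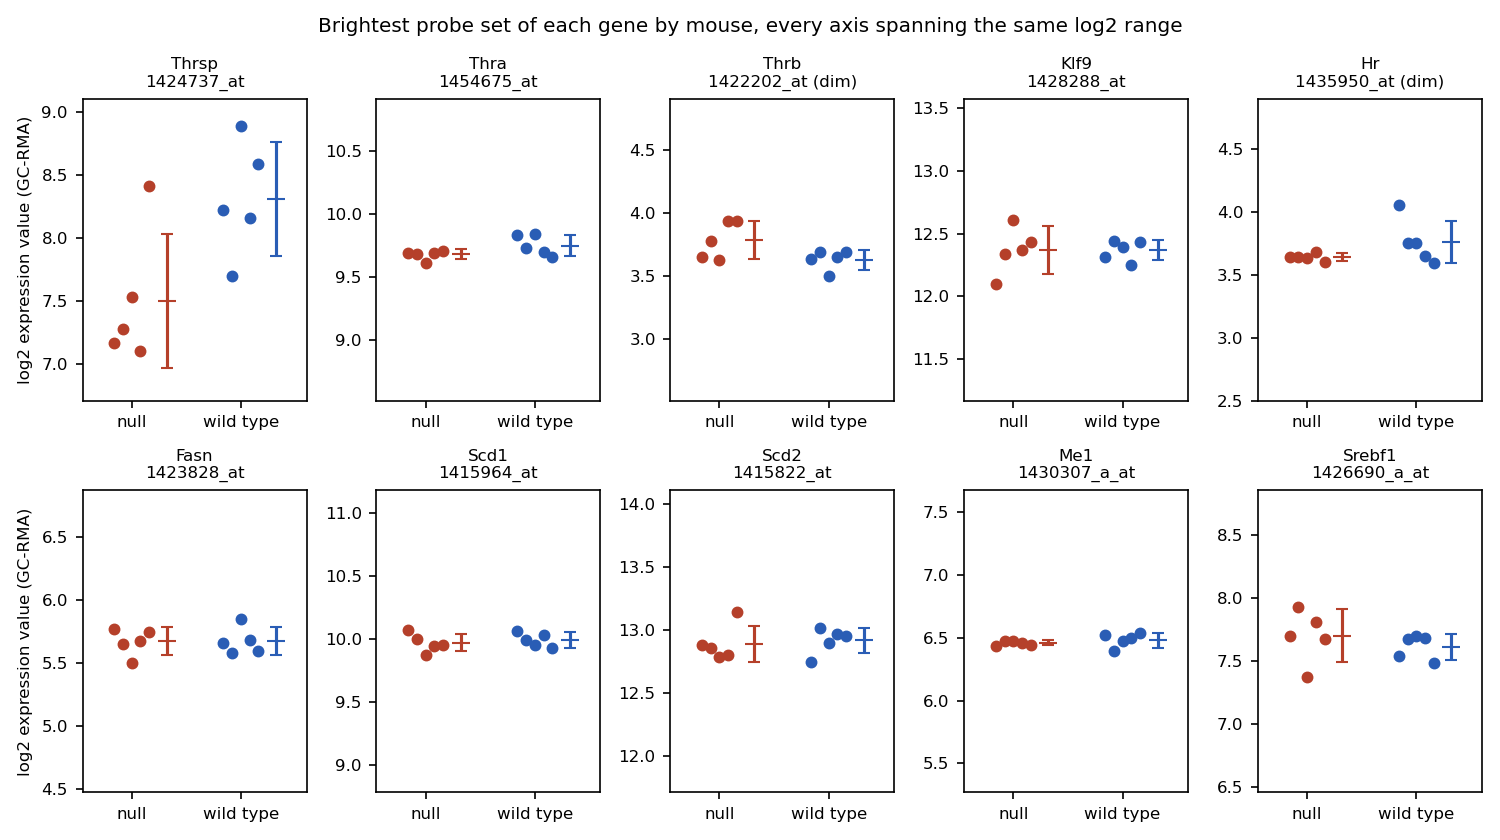
Log2 expression value (y axis, GC-RMA) of the brightest probe set of each of the 10 genes, 1 point per mouse, labelled null left and labelled wild type right, with the mean and SD of the 5 mice beside them. Thrsp spans 7.10 to 8.41 in labelled null mice and 7.70 to 8.89 in labelled wild type mice, and in each of the other 9 genes the groups also overlap.

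The second Thrsp probe set, 1422973_a_at, was dim, with values of 3.64, 3.89, 4.0, 4.08 and 4.66 in labelled null mice. It had 4.19, 4.23, 4.81, 4.40 and 4.31 in labelled wild type mice. The highest labelled null mouse was again replicate 5 and the highest labelled wild type mouse again replicate 3, and the log2 difference was -0.34, 1.26-fold lower in labelled null. Whether the probe sets agree inside the groups does not depend on the difference that chose the gene. After each value was taken as a deviation from its group mean, Pearson's r was 0.82 (two-sided exact permutation within groups, p = 0.0128) and Spearman's rho 0.52 (exact p = 0.161). Adjusted over 12821 pairs of probe sets of 1 gene, the exact p of r was 0.205, so the agreement did not pass the threshold of 0.05. Without the 2 mice farthest from the Thrsp median, r was 0.84, without null replicate 5 and wild type replicate 2 it was 0.60, and it was 0.61 (exact p = 0.133) without null replicate 5 and 0.77 (exact p = 0.0622) without wild type replicate 3. Pooled over the 10 mice, r was 0.87. As a background, the median r within groups was 0.22 over all such pairs and 0.38 over the 3253 pairs in which both probe sets had a mean of at least 5.

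**Figure D2:**
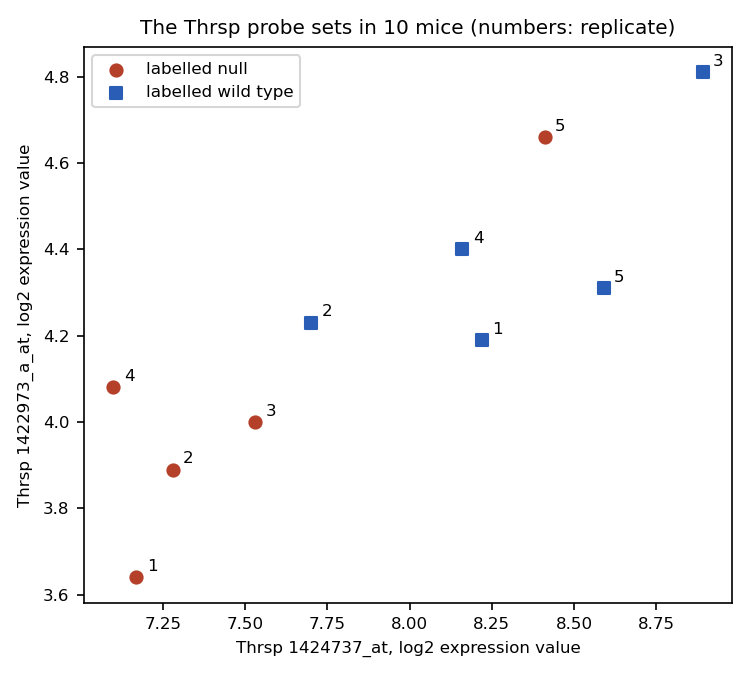
Log2 values of the dimmer Thrsp probe set (y axis) against the brighter one (x axis) in each mouse, with labelled null mice as circles, labelled wild type mice as squares and the replicate number beside each. Both probe sets place null replicate 5 highest among labelled null mice (8.41 and 4.66) and wild type replicate 3 highest of all (8.89 and 4.81).

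No probe set of the other 9 genes passed the test of a difference between the labelled groups. By limma, 0 of their 21 probe sets had an adjusted p under 0.05 (background 0% of 22626) and 0 had an unadjusted p under 0.05, against 3.67% (830) of all probe sets. The 2 groups did not overlap in 0 of the 21, against 0.623% (141) of all probe sets. Of the 21, 12 had a mean of at least 5 and 9 were dim, and their median log2 difference was -0.028, against -0.00036 over all probe sets. A p that misses the threshold does not show equal levels, so the 95% intervals of the log2 differences are given with the genes.

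The receptors transmit the hormone signal. Thra, whose product is the main receptor form of the brain, had values of 9.69, 9.68, 9.61, 9.69 and 9.71 in labelled null mice and 9.83, 9.73, 9.84, 9.70 and 9.66 in labelled wild type mice. The ranges overlapped, with a difference of -0.07 (95% interval -0.18 to 0.03, limma adjusted p = 0.999). Thrb, the second receptor gene, was dim at 3.65, 3.78, 3.63, 3.94 and 3.94 in labelled null mice and 3.64, 3.69, 3.50, 3.65 and 3.69 in labelled wild type mice. Null replicates 2, 4 and 5 lay above all labelled wild type mice, and its difference of 0.16 (interval -0.01 to 0.32) had the smallest unadjusted limma p of the 21, 0.0588, with an adjusted p of 0.999.

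Klf9 and Hr respond to thyroid hormone in rodent brain. Klf9, a zinc finger transcription factor, had values of 12.10, 12.34, 12.61, 12.37 and 12.43 in labelled null mice and 12.31, 12.44, 12.39, 12.25 and 12.43 in labelled wild type mice by its brightest probe set, 1428288_at. The labelled wild type mice lay inside the range of the labelled null mice, and the difference was 0.01 (interval -0.18 to 0.19). Klf9 had 7 probe sets, and the dim 1422264_s_at gave -0.34 (limma unadjusted p = 0.0815), the only one of the 21 with a size over 0.2. The 3 bright Klf9 probe sets correlated with each other within groups at only -0.15, 0.06 and 0.36, so they did not order the mice alike. Hr, a nuclear corepressor that binds thyroid hormone receptors, was dim in both of its probe sets. Its brighter one gave 3.64, 3.64, 3.63, 3.68 and 3.60 in labelled null mice and 4.05, 3.75, 3.75, 3.65 and 3.59 in labelled wild type mice, a difference of -0.12 (interval -0.29 to 0.05).

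Fatty acids are built by Fasn from malonyl-CoA, with NADPH that Me1 supplies in part, and are then desaturated by Scd1 and Scd2. Fasn had 5.77, 5.65, 5.50, 5.67 and 5.74 in labelled null mice and 5.66, 5.58, 5.85, 5.68 and 5.59 in labelled wild type mice. The 2 ranges nearly coincided, with a difference of -0.01 (interval -0.15 to 0.14). Me1 had 6.43, 6.47, 6.47, 6.46 and 6.44 in labelled null mice and 6.52, 6.39, 6.47, 6.50 and 6.54 in labelled wild type mice, a difference of -0.03 (interval -0.12 to 0.06). Its spread within groups, 0.04 on the log2 scale, was the smallest of the 12 bright probe sets.

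Scd1, a stearoyl-CoA desaturase of lipogenic tissues, had values from 9.87 to 10.07, with a median of 9.95, in labelled null mice and from 9.93 to 10.06, with a median of 9.99, in labelled wild type mice by 1415964_at. The difference was -0.03 (interval -0.13 to 0.08). Scd2, the desaturase known for its expression in brain, had 12.88, 12.86, 12.79, 12.80 and 13.14 in labelled null mice and 12.75, 13.02, 12.90, 12.97 and 12.95 in labelled wild type mice by 1415822_at, a difference of -0.03 (interval -0.19 to 0.14). Null replicate 5, the labelled null mouse with the most Thrsp, was also the highest for this probe set. The other 2 Scd2 probe sets ranked the mice differently: they correlated with each other within groups at 0.84 and with 1415822_at at -0.28 and -0.31. With quantile normalization the small differences of Fasn, Me1, Scd1 and Scd2 took the opposite sign, so no direction is read from them.

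Srebf1 encodes the transcription factor that switches on fatty acid synthesis genes. It had 7.70, 7.93, 7.37, 7.81 and 7.67 in labelled null mice and 7.54, 7.67, 7.70, 7.68 and 7.48 in labelled wild type mice. Labelled null mice held both the highest and the lowest value, and the difference was 0.08 (interval -0.13 to 0.29), or 0.16 without null replicate 3 (the lowest mouse, limma unadjusted p = 0.0467, adjusted p = 1).

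**Figure D3:**
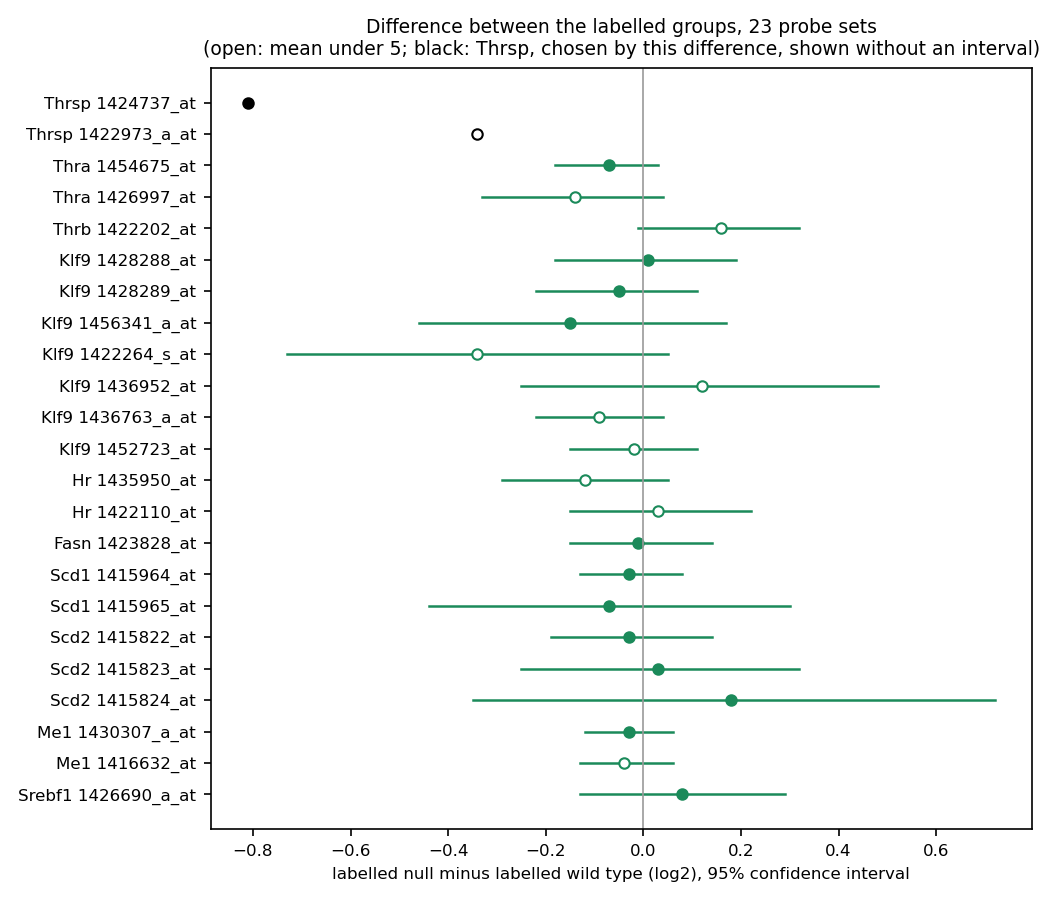
Log2 value in labelled null minus that in labelled wild type mice (x axis) for each of the 23 probe sets (rows), with 95% confidence intervals from limma for all but Thrsp and open circles for dim probe sets. All 21 intervals of the other genes include 0, and Thrsp, shown in black as points alone because it was chosen by this difference, lies at -0.81 and -0.34.

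Whether the genes varied with Thrsp from mouse to mouse was asked within the groups, apart from the difference that chose Thrsp. The slope of each probe set on the brighter Thrsp probe set was fitted by limma with the labelled group as a term. Of the 21 probe sets of the other genes, 0 passed an adjusted p under 0.05, as did 0% of 22625 over the array, where the lowest adjusted p was 0.26. At an unadjusted p under 0.05 there were 0 of 21, against 9.51% (2151) of all probe sets, of which 1264 had a positive and 887 a negative slope. No receptor, responsive or synthesis gene among them thus passed a test of varying with Thrsp in these 10 mice. The dimmer Thrsp probe set did not pass either, with a slope of 0.53 (SE 0.12, limma unadjusted p = 0.00192, adjusted p = 0.307). A miss in this test therefore does not show that a gene varies apart from Thrsp.

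Correlations of deviations from the group means were computed beside the slopes. The 21 values of r lay between -0.42 and 0.50, with a median size of 0.258, against 0.338 over all probe sets. An exact permutation p under 0.05 was found for 0 of the 21, against 9.70% of 22625 probe sets, and 0 of either passed after adjustment over the array. The dim Klf9 1422264_s_at had the highest value of the 21, 0.50 (exact p = 0.168, adjusted p = 0.621), with a rho of 0.25 (exact p = 0.521). Its slope of 0.31 log2 units per log2 unit of Thrsp (SE 0.18) had an unadjusted limma p of 0.119, the smallest of the 21. Scd1 1415964_at had the lowest, -0.42 (exact p = 0.27, adjusted p = 0.691).

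Among the synthesis genes the signs were mixed. By the brightest probe sets, r was 0.44 for Scd2 (exact p = 0.234), 0.39 for Fasn (exact p = 0.286), 0.26 for Me1 (exact p = 0.486) and -0.24 for Srebf1 (exact p = 0.536). Fasn had a slope of 0.08 (SE 0.07, limma adjusted p = 0.695). Its r was 0.14 without wild type replicate 3 and null replicate 4, the mice farthest from the median Thrsp value of all 10. The mice that deviated most from their own group means in Thrsp were null replicate 5 (by 0.91) and wild type replicate 2 (by -0.61), and without this pair, a choice made after seeing the data, r was 0.06 for Fasn, 0.12 for Scd2, -0.23 for Me1 and -0.71 for Scd1. Under that choice 0 of the 21 slopes had an unadjusted limma p under 0.05, against 7.50% of all probe sets. For Scd2, the rho was 0.16 (exact p = 0.69), below its r, and null replicate 5 was high for both genes.

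The receptors and responsive genes also had r of both signs. Thra had an r of 0.22 (exact p = 0.557), Thrb 0.05 (exact p = 0.931), Klf9 1428288_at 0.29 (exact p = 0.452), Klf9 1456341_a_at 0.45 (exact p = 0.249) and Hr 1435950_at -0.22 (exact p = 0.578). Without the 2 mice farthest from the Thrsp median, r was 0.66 for Thrb and 0.66 for Klf9 1456341_a_at. Without null replicate 5 and wild type replicate 2 it was -0.57 for Thrb and 0.03 for Klf9 1456341_a_at, so these values rested on few mice. When the groups were pooled, 1 of the 21, Klf9 1422264_s_at, had a permutation p under 0.05 (r = 0.66, p = 0.0423, adjusted p = 0.508), against 9.68% of all probe sets, and pooled values include the difference that chose Thrsp.

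**Figure D4:**
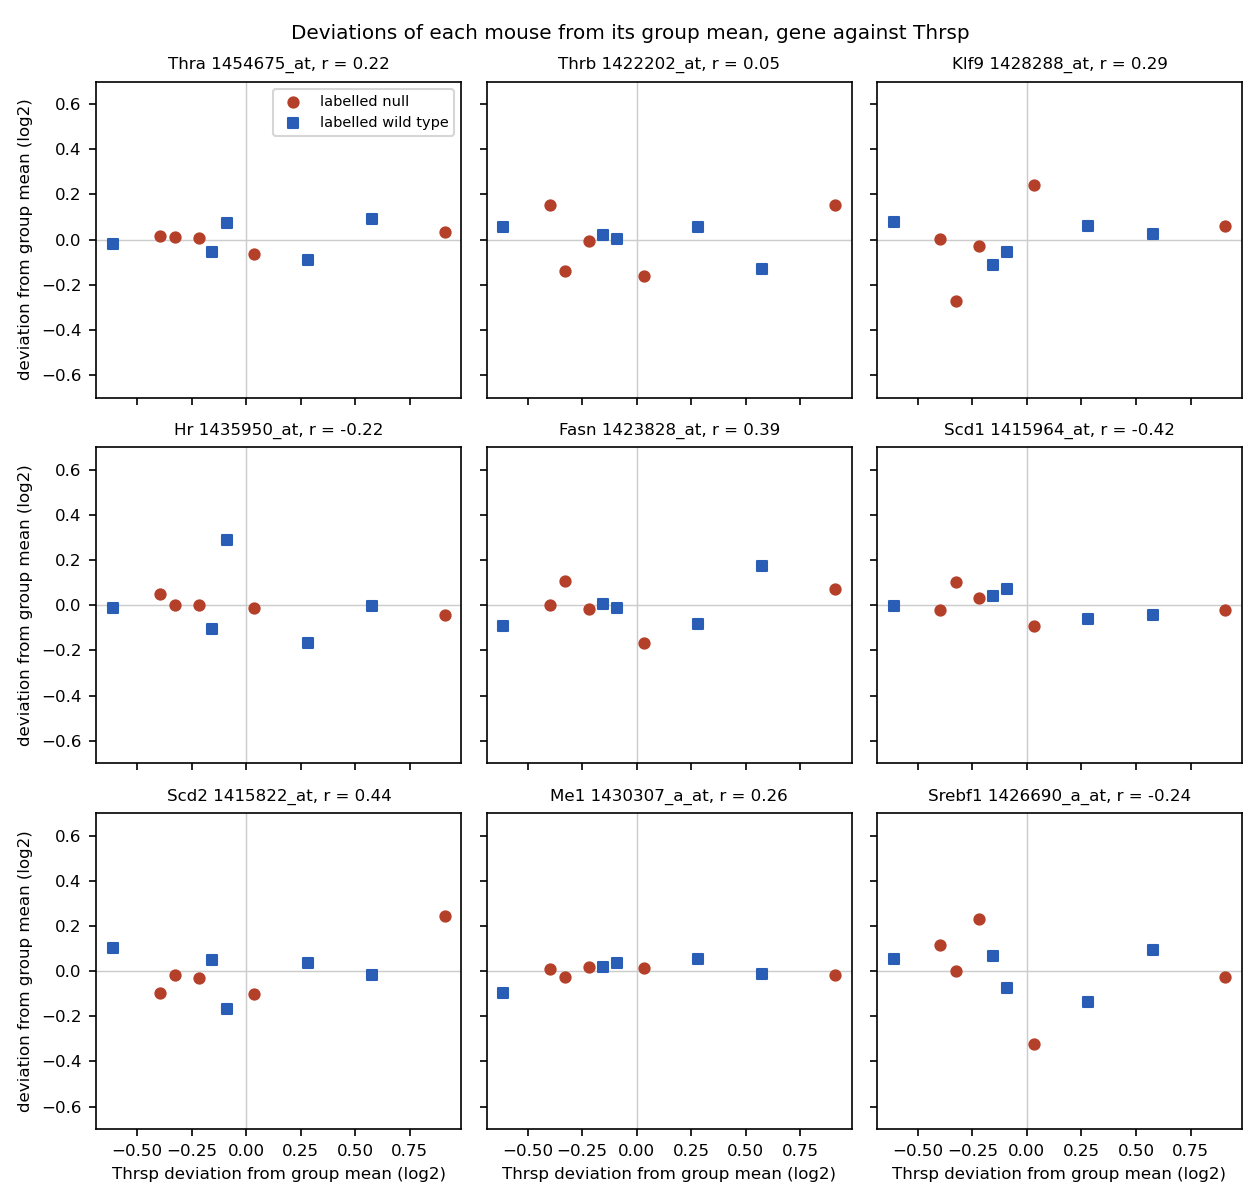
Deviation of each mouse from its group mean, in log2 units, for the brightest probe set of 9 genes (y axes) against that of Thrsp (x axes), with labelled null mice as circles and labelled wild type mice as squares. The vertical scatter is small beside the horizontal one, and r ranges from -0.42 (Scd1) to 0.44 (Scd2).

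**Figure D5:**
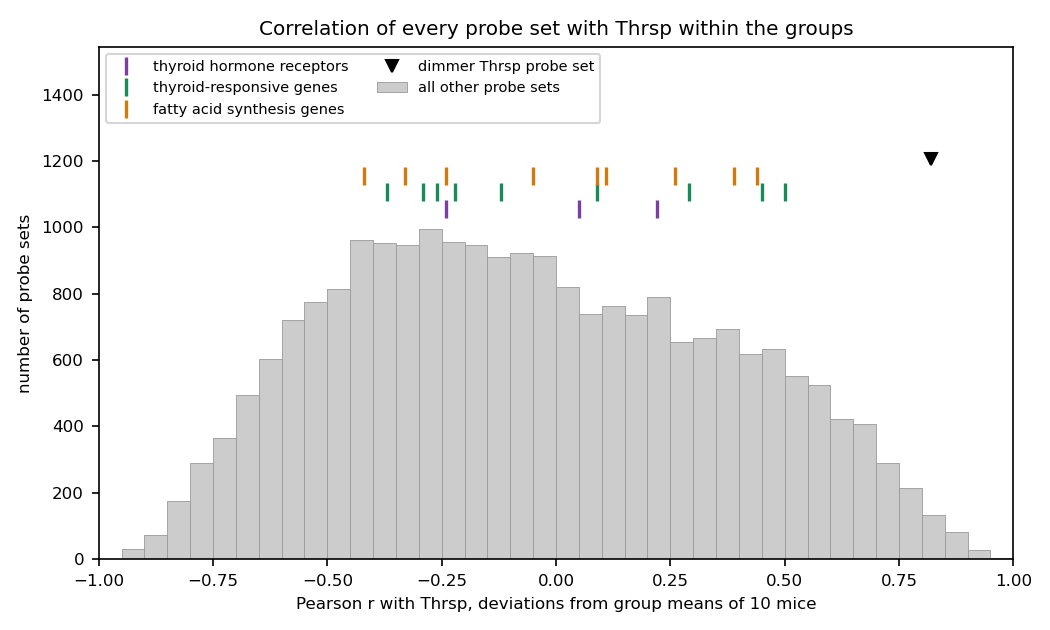
Number of probe sets (y axis) by Pearson's r with Thrsp within the groups (x axis), with the 21 probe sets of the other genes as coloured ticks by role and the dimmer Thrsp probe set as a black triangle. The ticks lie between -0.42 and 0.50 and the triangle at 0.82.

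Leaving out wild type replicate 2, the labelled wild type mouse with the least Thrsp (7.70), raised the unadjusted counts over the whole array. Without it, 16.5% of all probe sets had an unadjusted limma p under 0.05 for the slope, against 9.51% with all 10 mice. Of the 21, 4 had such a p, a share near that of the array, so it is not read as a result about these genes. The 4 were Klf9 1422264_s_at (slope 0.53), Klf9 1456341_a_at (0.37), Klf9 1452723_at (-0.15) and Scd2 1415822_at (0.20), so the Klf9 probe sets did not share a sign. None of the 21 passed after adjustment there, although 141 of 22625 probe sets did.

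Other genes of the same pathways were taken from lists, each gene by its brightest probe set. After adjustment over all probe sets, 0 of these genes passed in any list, for either the difference or the slope. Unadjusted counts are therefore descriptions. Over all probe sets the shares were 3.67% for the difference and 9.51% for the slope. The lists were chosen with earlier results of these data known and take brightest probe sets, whereas most probe sets of the array are dim. These shares therefore do not show whether a list holds more such genes than expected.

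Of 22 other thyroid-responsive genes measured, 1 was higher and 4 were lower in labelled null at an unadjusted limma p under 0.05, and 0 had such a p for the slope on Thrsp. Nefh, the heavy neurofilament subunit, averaged 9.16 ± 0.15 in labelled null and 9.59 ± 0.08 in labelled wild type (SD, n = 5 each), a difference of -0.43 (limma unadjusted p = 0.000103, adjusted p = 0.822). Mbp, a structural protein of myelin that is also on the oligodendrocyte marker list, averaged 13.84 ± 0.06 in labelled null and 14.06 ± 0.16 in labelled wild type, a difference of -0.23. Nefm, the medium neurofilament subunit, with -0.28, and the dim Aldh1a1, a retinaldehyde dehydrogenase, with -0.22, were named after their values were seen. Reln, the extracellular guidance protein reelin, was the gene with the positive difference, 0.34 (limma unadjusted p = 0.00709). The slope of Nefh on Thrsp was 0.13 (SE 0.07, limma unadjusted p = 0.108) and that of Mbp 0.00 (SE 0.09), while the other 6 oligodendrocyte markers, described with the cell types, had positive slopes.

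Of 10 genes of hormone supply and transport, 0 had an unadjusted p under 0.05 for the difference, and Slco1a4, an organic anion transporter of brain vessels, alone did for the slope, -0.23 (SE 0.09, limma unadjusted p = 0.0221). Slco1c1, the thyroxine transporter of the same vessels, had a difference of -0.16 (limma unadjusted p = 0.0633). Of 15 receptor partners and cofactors, Ncoa6, a nuclear receptor coactivator, was lower with -0.25 (limma unadjusted p = 0.0446). In that list 1 gene had a positive and 2 had negative slopes at an unadjusted p under 0.05. The coactivators Ncoa1 and Ncoa3 had slopes of 0.13 and -0.26, and the dim Rxra, a retinoid X receptor, had -0.12.

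Of 24 other fatty acid synthesis genes, 0 had an unadjusted p under 0.05 for the difference, and 3 had one for a positive slope on Thrsp. They were Hacd3, a dehydratase of fatty acid elongation, with 0.26 (SE 0.09), Idh1, the cytosolic isocitrate dehydrogenase that yields NADPH, with 0.63 (SE 0.25), and Mid1ip1 with 0.22 (SE 0.10). Mid1ip1 is the relative of Thrsp with which it can pair, and its limma adjusted p was 0.522. Acly, which makes the acetyl-CoA used by Fasn, had a difference of -0.13 (limma unadjusted p = 0.061).

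Of 21 lipogenic regulators, 0 had an unadjusted p under 0.05 for the difference and 1 for the slope, Fabp5, an intracellular fatty acid binding protein. Its slope was 0.40 (SE 0.09, limma unadjusted p = 0.00157, adjusted p = 0.297). Of 16 genes of triglyceride and phospholipid assembly, 0 had an unadjusted p under 0.05 for the difference. There, Dgat2, which completes triglycerides, with -0.15 and the dim Lipe, which breaks them down, with -0.21 had negative slopes at that level.

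The genes most like Thrsp by r within the groups were taken from 7153 candidates with 1 gene symbol and a mean of at least 5. They were Cnbp (r = 0.95), a nucleic acid binding protein, Snx4 (0.95), a sorting nexin, Prdx3 (0.94), the mitochondrial peroxiredoxin, Lgmn (0.94), a lysosomal protease, and Fdft1 (0.94), the enzyme that commits farnesyl diphosphate to cholesterol. The lowest values were those of Aopep (-0.92), Ccnt2 (-0.92) and Atp6v0e (-0.91). Pooled over the 10 mice, r was only 0.15 for Cnbp and -0.16 for Atp6v0e. For the others named it was 0.60 to 0.84 at the high end and -0.74 to -0.72 at the low end. As the ends of a ranked array these genes are a description over 10 mice, and 0 of the 22625 probe sets passed after adjustment.

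Values of other cell types were set beside Thrsp. The summed level of 7 oligodendrocyte markers lay between 14.24 and 14.41 on the log2 scale in labelled null mice and between 14.34 and 14.75 in labelled wild type mice, and its r with Thrsp within groups was 0.34. All 7 had negative differences, from -0.52 to -0.09, of which 2 (Mbp and Cldn11) had an unadjusted limma p under 0.05 and 0 an adjusted one. Their slopes on Thrsp ran from 0.00 for Mbp to 0.44 for Cldn11, with a median of 0.31, and Cnp, a myelin enzyme, with 0.26 was the only one with an unadjusted limma p under 0.05 (0.0313, adjusted p = 0.499). The sum is weighted by its brightest probe set, here Mbp. That of 9 neuronal markers lay between 14.82 and 15.03 in labelled null mice and between 14.92 and 15.10 in labelled wild type mice (r = 0.39). Of these 9, 3 were lower in labelled null at an unadjusted limma p under 0.05. They were the dim Rbfox3 with -0.37, Nefl with -0.20 and Tubb3 with -0.20, and the list's median difference was -0.11. Of 10 astrocyte markers, 1 was lower at that level, S100b with -0.25. The astrocyte differences had a median of -0.01 and ran from -0.25 to 0.16. Of 10 endothelial markers, 7 of them dim, 1 was lower at that level, Egfl7 with -0.20. The endothelial differences had a median of -0.06 and ran from -0.20 to 0.08. After adjustment, 0 passed in any of these lists. The r was 0.54 for microglial, 0.53 for endothelial and -0.04 for astrocyte markers, 0.09 for choroid plexus, -0.28 for adipose and -0.39 for blood markers. The microglial sum is weighted by Ctss and the endothelial sum by Slco1c1. The median slopes on Thrsp were only 0.07 for the microglial and 0.04 for the endothelial markers. Slopes with an unadjusted limma p under 0.05 were 0.12 for the dim microglial Aif1, 0.54 for the endothelial Tek and -0.11 for the dim endothelial Esam. The astrocyte sum is weighted by Aldoc, whose slope on Thrsp was -0.23, whereas the median slope of the 10 markers was 0.14, with Slc1a3 at 0.34 (limma unadjusted p = 0.0259) and S100b at 0.22 (0.0509). The part of cell composition in the differences of Thrsp was not tested. The 6 adipose markers had a summed level of 4.49 to 4.75 in labelled null mice and 4.59 to 4.94 in labelled wild type mice, all single markers being dim, Adipoq at a mean of 1.36 and Fabp4 at 2.63. Of the array measures, the first component of the group-centred values held 45.9% of their variance and had an r of 0.40 with Thrsp. Null replicate 5 stood at 0.56 on this component, the highest of the 10 arrays, beside its high Thrsp, Klf9 1422264_s_at and Scd2 1415822_at values. It had the highest labelled null sums of the oligodendrocyte, neuronal, microglial and endothelial markers and the lowest of the astrocyte markers. Wild type replicate 2 stood at 0.46, the highest labelled wild type array on the component, but had the lowest labelled wild type Thrsp value (7.70). With the component as a covariate, 0 of the 21 slopes had an unadjusted limma p under 0.05, against 16.4% of all probe sets. For RNA integrity, the 3′ minus 5′ value of Gapdh had an r of -0.11 with Thrsp and that of Actb 0.05.

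The genes beside Thrsp on chromosome 7 were read in the same way. In gene order Thrsp was the 570th of 958 measured genes of the chromosome, with Apbb1 the 648th. Homer2 was the 531st and Gprc5b the 711th, so Thrsp lies between Homer2 and Apbb1. Which strain's sequence the mice carry at Thrsp itself was not tested. The nearest measured genes were Ndufc2, a subunit of respiratory complex I, with a difference of 0.04 and a slope on Thrsp of 0.23 (limma unadjusted p = 0.0221), and the dim Kctd14, with 0.24 (limma unadjusted p = 0.00625). Kctd14 had 2.60 to 2.87 in labelled null mice and 2.31 to 2.58 in labelled wild type mice, so that its groups did not overlap. Farther out, the differences were 0.00 for Gab2, -0.26 for Tenm4 (limma unadjusted p = 0.0114) and 0.08 for Ints4, each of them dim. That of Aamdc, with a mean of 5.65, was 0.07. All 6 had a limma adjusted p of 0.999. Sequence differences between strains under the probes were not tested.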

How the data were processed

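The authors hybridised cerebral cortex RNA of 10 mice to Affymetrix MOE430A 2.0 arrays and deposited log2 expression values made with GC-RMA, which uses the GC content of the probes to correct background, normalizes the arrays to each other and summarises each probe set. The sources used here give no GC-RMA version. Samples were grouped by their labels alone, 5 null and 5 wild type, and the labels do not say which arrays are littermates. The 64 control probe sets were left out of the tests. Of the other 22626, the platform annotation gave 1 gene for 20380, several for 691 and none for 1555, and all 10 genes were matched to RefSeq (GRCm38.p6). Levels of different probe sets were set beside each other only to choose the brightest of a gene, to call probe sets dim and to sum markers.

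Null minus wild type differences, and slopes on the brighter Thrsp probe set with the group as a term, were fitted by lmFit and eBayes of limma 3.58.1 (R 4.3.3). The p-values were adjusted by Benjamini-Hochberg over all probe sets, at a threshold of 0.05. Correlations of deviations from group means were tested by exact permutation within groups (14400 orders, smallest possible p 6.94e-05, two-sided) and pooled ones by 100000 permutations, in Python 3.11.15 with NumPy 2.4.6 and SciPy 1.17.1. The 22 relations with Thrsp were adjusted over all other probe sets of the array. The programs were tested on simulated data. For arrays, their number limits the precision.

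Members, gene lists and tests were chosen with earlier results of these data known. Genes named are the members, up to 3 per list with the smallest p for the difference and for the slope, the 5 highest and 3 lowest by r with Thrsp, and the 3 measured genes on either side of it. The alternatives tried were a replicate block, median centring, quantile normalization, a filter at a mean of 5, a floor at 4, an intensity trend with robust prior, array weights, no group term, the first component as a covariate, the methods' t-test, the other Thrsp probe set or the mean of both, and leaving out arrays, of which leaving out the pair with the largest Thrsp deviations was chosen after seeing the data.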

Additional observations from a re-analysis of the deposited data

Results flagged for a closer look

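In each group of 5 mice, the highest or lowest value was asked whether it stood apart from the others by more than 0.71 of the whole range. Of 46 groups examined, 5 had such a mouse, and chance gives about 5% of groups. In labelled null mice, Thra 1454675_at was low in replicate 3 (9.61), Klf9 1422264_s_at was high in replicate 5 (3.52), Klf9 1436952_at was high in replicate 4 (3.56) and Scd2 1415822_at was high in replicate 5 (13.14). In labelled wild type mice, Thrb 1422202_at was low in replicate 3 (3.50). Null replicate 5, which stands apart in 2 of these, was also the labelled null mouse with the highest Thrsp value (8.41), and the highest of all arrays on the first component (0.56). Wild type replicate 2 was the highest labelled wild type array on that component (0.46) but had the lowest labelled wild type Thrsp value (7.70). Both probe sets are among those whose correlation with Thrsp was highest.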

How the results depend on the processing

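After adjustment, 0 of the 21 probe sets passed for the difference or for the slope under every alternative run. At an unadjusted p under 0.05, the difference gave 1 under the replicate block, median centring and quantile normalization (Thrb each time) and under array weights (Klf9 1422264_s_at). It gave 0 to 2 when single arrays were left out. The share over all probe sets was 3.67% in the main fit and is not given for these alternatives, so nothing is read from these counts. The slope gave 1 without the group term (Klf9 1422264_s_at), against 9.41% of all probe sets. With the dimmer Thrsp probe set it gave 2 (Klf9 1456341_a_at and 1422264_s_at), against 9.5%. With the mean of both it gave 1 (Klf9 1422264_s_at), against 9.2%. These counts are not read as a result about the members. With the replicate block it gave 1 (Scd2 1415823_at), where the background was 4.46%. Leaving out single arrays gave 0 to 4, and the 4 came without wild type replicate 2, where the background was 16.5%. The numbers in the labels were not shown to pair the mice: deviations of same-numbered mice correlated at 0.54, 0.07, 0.10, 0.22 and 0.10, and 1 of 5 null arrays correlated best with its own number. The Thrsp difference was -1.04 to -0.67 without single arrays, -0.81 under the replicate block, and the agreement of its probe sets was 0.61 to 0.88, losing an exact p under 0.05 without null replicate 5 and without wild type replicate 3. Quantile normalization gave 0.04 for Fasn, 0.03 for Scd1, 0.01 for Scd2, 0.02 for Me1, with -0.01 for Thra and 0.15 for Srebf1, and leaving out single arrays gave -0.05 to 0.07 for Klf9 1428288_at, -0.03 to 0.04 for Fasn, 0.03 to 0.16 for Srebf1 and -0.16 to -0.05 for Hr. The causes were not tested. The number of arrays, 5 a group, limits the precision, and 9 of the 21 probe sets were dim.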
